A study of Mus with 35 samples.

Results

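The genes described here are 40 genes of the integrated stress response and the unfolded protein response, followed in mouse brain that carried a mutation in Hnrnph2 and had received an antisense oligonucleotide (ASO) against Hnrnph2. They were chosen by symbol, from 55453 symbols in the deposited expression table. The 40 symbols stand on 41 rows, because Ddit3 is listed as 2 rows. RNA was sequenced from 35 libraries of male C57BL/6J mice, and expression is given as TPM, a measure that is divided by transcript length and scaled to the same total in every library. Mutant males were hemizygous for Hnrnph2 P209L or Hnrnph2 R206W, and wild-type (WT) males were their littermates. Each mouse had received a single injection of 30 µg of Hnrnph2 ASO or control ASO into a cerebral ventricle between postnatal days 2 and 4, so no library comes from an uninjected brain.

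The libraries formed 3 cohorts. The P209L cohort at 8 weeks of age had 12 libraries, the P209L cohort at 3 weeks had 11 and the R206W cohort at 3 weeks had 12. In each cohort the groups were mutants given Hnrnph2 ASO, mutants given control ASO, WT mice given Hnrnph2 ASO and WT mice given control ASO. There were 2 libraries of P209L mice given Hnrnph2 ASO at 3 weeks and 3 of every other group. The WT mice at 3 weeks were assigned to a cohort from the animal names in the library titles. The labels do not state outright that each library is a separate animal, so p-values measure the spread between these libraries. The design text names whole brain and the extraction protocol names cortex, and the libraries held cerebellar, choroid plexus and blood transcripts beside cortical ones: Slc17a7 of excitatory neurons was at 536 to 849 TPM, Gabra6 of cerebellar granule cells at 32.4 to 155 TPM, Ttr of the choroid plexus at 457 to 1187 TPM and the haemoglobin gene Hbb-bs at 290 to 2116 TPM. In such bulk tissue, fewer cells of a type and less RNA per cell cannot be told apart.

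The integrated stress response begins with kinases that phosphorylate the translation factor eIF2. Phosphorylated eIF2 slows general protein synthesis while ribosomes still translate the mRNA of ATF4, a transcription factor that switches on genes for amino acid supply and, under lasting stress, the factor CHOP. The unfolded protein response is read out from the endoplasmic reticulum (ER) by the sensors PERK, IRE1 and ATF6. PERK is itself an eIF2 kinase, IRE1 splices the mRNA of the factor XBP1, and ATF6 is cut in the Golgi to release its own factor. XBP1 and ATF6 raise chaperones, folding enzymes and the machinery that returns misfolded proteins for degradation (ERAD). Gene-level TPM reports none of the phosphorylation, the splicing or the cleavage, so the values below are mRNA levels only.

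Hnrnph2 itself was first read in every library as a check of the labels. It lay between 6.95 and 26.68 TPM in the 17 libraries given Hnrnph2 ASO, against 88.2 to 116.82 TPM in the 18 libraries given control ASO, and the ranges did not overlap in any cohort. The libraries each had between 16235 and 16649 genes at 1 TPM or more, and mitochondrial transcripts took 9.28 to 15.4% of TPM. The mean correlation of a library with the others of its group was 0.977 to 0.989. One library stood apart, WT Hnrnph2 ASO replicate 3 of the P209L cohort at 3 weeks, which had the lowest mitochondrial share (9.28%, the next lowest being 12.2%) and the lowest correlation. Its summed level of the 8 ATF4 targets of amino acid, serine and one-carbon supply was 534.7 TPM, against 435 and 437 TPM in the other libraries of its group. Values without it are given for Atf6b, Ppp1r15a, Xbp1 and Slc7a5, but not for every range in which it holds an extreme value. Read depth is not known from a TPM table.

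The members' levels spanned a wide range, from Trib3, below 1 TPM on average, to Calr. Of the ISR kinases and their substrate, Eif2s1, the alpha subunit of eIF2, averaged 25.7 TPM over the 35 libraries, Eif2ak3, which encodes PERK, 14.6 TPM, and Eif2ak4, which encodes the amino acid sensor GCN2, 9.51 TPM. The phosphatase cofactors that reverse the modification were Ppp1r15b, the constitutive one, at 27.6 TPM, and Ppp1r15a (GADD34), the inducible one, at 16.9 TPM. Atf4 averaged 124 TPM and ranged from 83.5 to 148.6 TPM. Atf5, a related factor, averaged 32.5 TPM.

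Ddit3, which encodes CHOP, had one steady row and one erratic row. The first row lay between 27.7 and 49.97 TPM in all libraries and averaged 35.8 TPM. The second was 0 in some libraries of each cohort and reached 117 TPM in others. The span of Ddit3 in the RefSeq annotation (GRCm38.p6, chr10:127290793-127296291) overlaps those of Mbd6 and Mars1, and reads may have been split between the rows, so all Ddit3 values are uncertain. Values for Ddit3 below are those of the first row unless the second is named.

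Among the ATF4 targets that supply amino acids and one-carbon units, Slc3a2, the heavy chain of several amino acid transporters, averaged 122 TPM, and the serine synthesis enzymes Psat1 and Phgdh averaged 82.2 and 54.1 TPM. Asns, asparagine synthetase, averaged 80.0 TPM, and Slc7a5, the large neutral amino acid transporter that pairs with Slc3a2, 52.2 TPM. The mitochondrial folate enzymes Shmt2 and Mthfd2 were lower, at 25.9 and 8.22 TPM, and Slc7a11, the cystine transporter, averaged 9.91 TPM. Of the targets tied to stress and feedback, Ddit4, an inhibitor of mTORC1 signalling, averaged 76.3 TPM, Sesn2, another inhibitor of mTORC1, 10.01 TPM, and Chac1, which degrades glutathione, 7.05 TPM. Trib3, a pseudokinase that restrains ATF4 and CHOP, was the only member too low to test: it lay between 0.32 and 1.07 TPM, with a mean under the minimum of 1 TPM used for testing. The other 39 genes, on 40 rows, were tested in every comparison.

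The ER side held the most abundant members. Calr, the lectin chaperone calreticulin, averaged 324 TPM, Hspa5 (BiP), the main ER Hsp70, 194 TPM, Canx, calnexin, 180 TPM, and Hsp90b1 (GRP94) 172 TPM. The disulfide isomerases Pdia3, Pdia6 and Pdia4 averaged 106, 66.8 and 26.1 TPM. Manf, a secreted ER-stress protein, averaged 86.3 TPM, Hyou1, an ER nucleotide exchange factor, 49.1 TPM, and the BiP co-chaperones Dnajb9 and Dnajc3 33.1 and 22.6 TPM. Sdf2l1, a partner of ER J-domain proteins, averaged 13.7 TPM, and Creld2, an ER-stress-induced protein, 14.5 TPM. Of the sensors and factors, Xbp1 averaged 69.9 TPM, Atf6b 47.1 TPM, Atf6 19.2 TPM and Ern1, which encodes IRE1, 4.03 TPM. The ERAD genes Sel1l, Herpud1 and Edem1 averaged 63.4, 57.4 and 10.5 TPM.

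**Figure D1:**
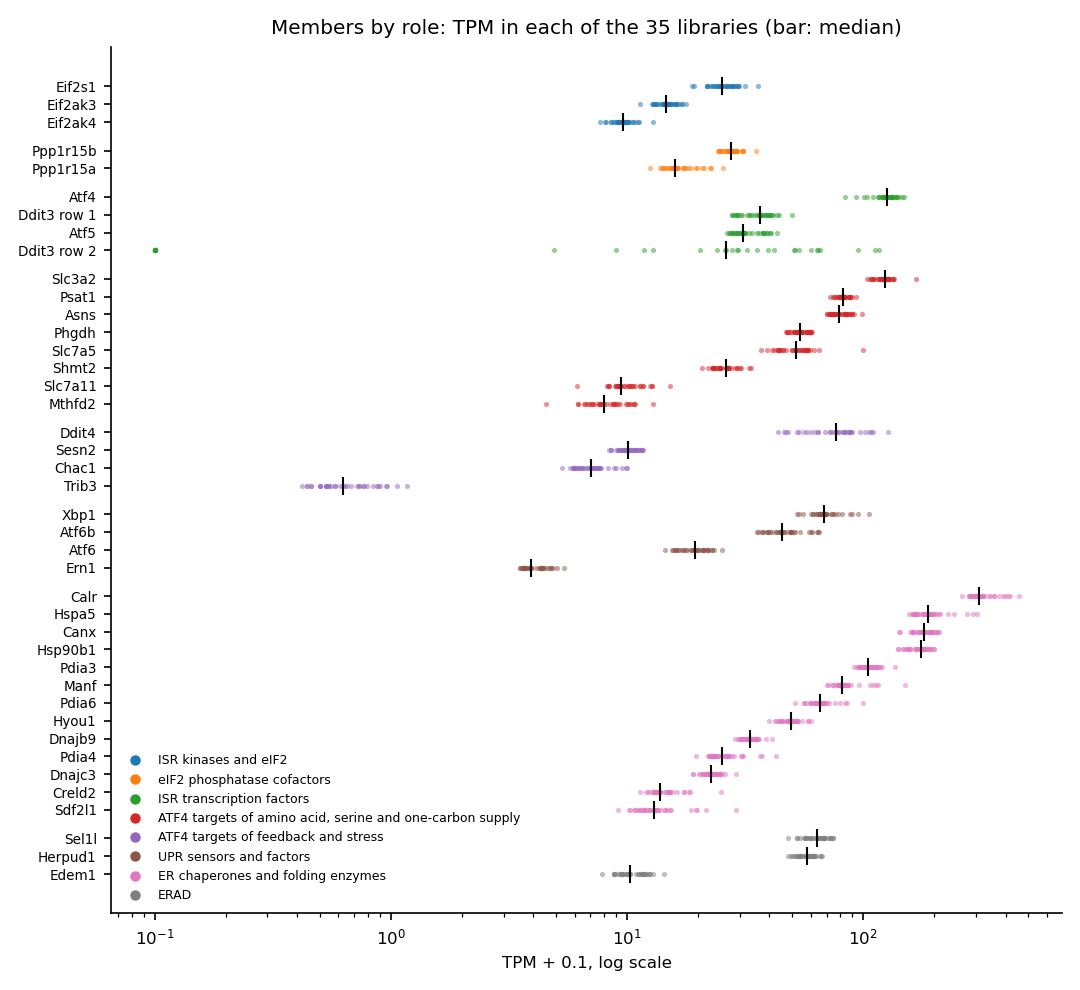
Level of each member in each of the 35 libraries, on a logarithmic axis of TPM + 0.1, grouped and coloured by role; a point is a library and the bar is the median. Most members vary little between libraries; the second Ddit3 row, which reaches 0, and Trib3, at 0.32 to 1.07 TPM, stand apart.

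The mutations were compared under the control ASO, to ask which members the P209L and R206W alleles alter when Hnrnph2 is not lowered. Atf6b, a relative of the ER sensor ATF6, was higher in both mutants, and Atf4 was lower on average over the cohorts. A member is said to have risen or fallen when its limma p, adjusted by Benjamini-Hochberg over all genes tested, was below 0.05. Fold changes are on the scale log2(TPM + 1), which understates the change of low genes.

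Atf6b lies at chr17:34647146-34655074 (RefSeq, GRCm38.p6), with no overlapping gene in that annotation. In the P209L cohort at 8 weeks it was at 53.7, 49.1 and 51.3 TPM in P209L mice given control ASO, against 37.8, 37.2 and 39.3 TPM in WT mice given control ASO. At 3 weeks it was at 64.6, 59.0 and 64.4 TPM in the P209L mice, against 45.9, 49.3 and 45.3 TPM in the WT mice. In the R206W cohort it was at 63.3, 60.8 and 60.2 TPM in the R206W mice, against 48.7, 49.2 and 49.3 TPM in the WT mice. Every mutant library was above every WT library of its cohort.

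The Atf6b fold change between mutants and WT mice was 0.42 on the log2 scale at 8 weeks in the P209L cohort (SE 0.060, limma adjusted p = 0.0260). It was 0.41 in the P209L cohort at 3 weeks (SE 0.107), which did not pass (limma adjusted p = 0.289), and 0.32 in the R206W cohort (SE 0.052, limma adjusted p = 0.0493). The calls within single cohorts were fragile: at 8 weeks the call ended without any of 5 of the 6 libraries compared (every one but WT control ASO replicate 3; adjusted p of 0.0865 or more), and in the R206W cohort it ended without each of the 6 (adjusted p of 0.0949 or more). The average over the 3 cohorts was 0.38 (SE 0.044, 58.5 TPM in mutants and 44.7 TPM in WT mice, limma adjusted p = 1.42e-06), and no library left out ended that call. The mutation effect on Atf6b differed by 0.09 (SE 0.107) between P209L and R206W mice at 3 weeks and by 0.01 (SE 0.107) between 8 and 3 weeks in P209L mice, and neither difference passed.

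Atf6b was the only member called within a single cohort, 1 of 40 rows in the P209L cohort at 8 weeks, where 0.17% of all genes tested were called, and 1 of 40 in the R206W cohort, where 0.133% were. In the P209L cohort at 3 weeks limma called 0 of 40 rows, beside 0.133% of all genes. At an unadjusted p below 0.05 there were 5 of 40 rows (12.5%), against 8.86% of all genes. The members nearest to a call there after Atf6b were Atf4 (log2 fold change -0.28, limma adjusted p = 0.452) and Pdia4 (-0.29, the same adjusted p). In the average of the cohorts 1 member rose and 1 fell, against 4.28% of all genes called in either direction. The median fold change of the members was -0.05, and that of all genes tested was 0.01.

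Atf4, the transcription factor at the centre of the integrated stress response, was the member that fell. At 8 weeks it was at 121.0, 126.2 and 132.0 TPM in P209L mice given control ASO, against 141.0, 148.6 and 124.1 TPM in WT mice, and the groups overlapped. At 3 weeks Atf4 was at 93.2, 100.2 and 109.5 TPM in P209L mice, against 121.9, 126.1 and 119.7 TPM in WT mice. Atf4 in the R206W cohort was at 122.0, 121.1 and 129.4 TPM in R206W mice, against 131.8, 146.4 and 135.6 TPM in WT mice. In both 3-week cohorts the mutant libraries were all below the WT libraries. The average log2 fold change was -0.18 (SE 0.047, 117 TPM in mutants and 133 TPM in WT mice, limma adjusted p = 0.0216). The call ended without any of 4 libraries: P209L control ASO replicate 1 at 8 weeks, P209L control ASO replicate 1 at 3 weeks, WT control ASO replicate 2 at 8 weeks and WT control ASO replicate 2 of the R206W cohort (adjusted p 0.0508 to 0.0603). It also missed the threshold in the P209L cohorts alone (-0.20, limma adjusted p = 0.0637).

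None of the 11 tested members grouped here as ATF4 targets was called in the same comparison, where 4.28% of all genes were called. For so few genes that is near the share of all genes, so it is not read as a result about the targets. Of the 8 targets for amino acid, serine and one-carbon supply, 0 were called and 7 were below 0, with a median of -0.05. Of the 3 tested targets of feedback and stress, 0 were called and 3 were above 0. Atf5 stood at 0.02 and Ddit3 at -0.12, neither called. Of the 13 ER chaperones and folding enzymes, 0 were called and 11 were below 0, with a median of -0.07, against 0.01 for all genes. Markers of cell types outside the cortex moved in this comparison too: 5 of 11 cerebellar markers fell (median -0.28), with summed levels of 948 to 1080, 885 to 1045 and 1119 to 1420 TPM in the mutants of the P209L 8-week, P209L 3-week and R206W cohorts, against 855 to 1190, 1020 to 1123 and 1375 to 1912 TPM in the WT mice. Of the 8 oligodendrocyte markers 4 fell (median -0.22), and of 19 immediate early genes 3 fell (median -0.36). No cerebellar or oligodendrocyte marker was at 0 in any library, and the part of these cells in the members' results was not tested.

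**Figure D2:**
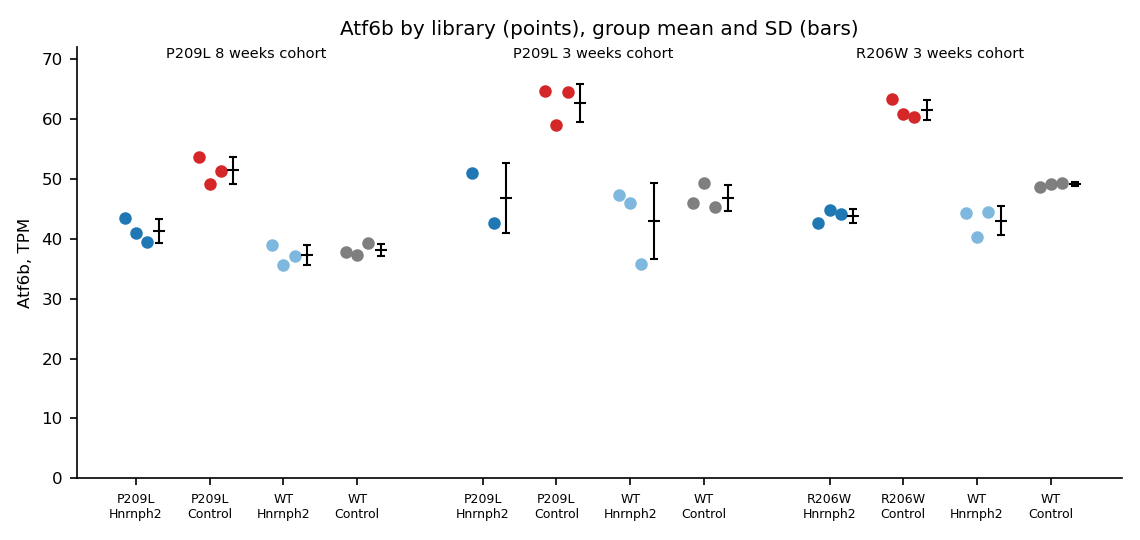
Atf6b in TPM (vertical axis, from 0) in every library; each column is a genotype with Hnrnph2 ASO (Hnrnph2) or control ASO (Control), points are libraries and bars are the group mean with its SD. The mutants given control ASO, at 49.1 to 64.6 TPM, are above every other library of their own cohort.

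The Hnrnph2 ASO was then compared with the control ASO within the mutants, to ask which members change when the transcript of the mutated gene is lowered. Atf6b fell to a level that was near that of WT mice on average over the cohorts, and Sesn2 fell by less. At 8 weeks Atf6b was at 43.4, 41.0 and 39.4 TPM in P209L mice given Hnrnph2 ASO, against the 49.1 to 53.7 TPM of P209L mice given control ASO. At 3 weeks it was at 51.0 and 42.6 TPM in P209L mice given Hnrnph2 ASO, against 59.0 to 64.6 TPM under the control ASO. R206W mice given Hnrnph2 ASO had 42.6, 44.8 and 44.1 TPM of Atf6b, against 60.2 to 63.3 TPM in R206W mice given control ASO. The groups did not overlap in any cohort.

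The fold change of Atf6b was -0.48 on the log2 scale in R206W mice (SE 0.052, limma adjusted p = 0.00243), and no library left out ended that call. In that cohort no beginning of an animal name is shared between the ASOs, so the ASO and the name cannot be told apart. The same limit holds in the P209L cohorts. There each name beginning found on 2 libraries has 1 ASO, and the other libraries have names of their own. The Atf6b fold change was -0.31 in P209L mice at 8 weeks (SE 0.060, limma adjusted p = 0.109) and -0.42 in P209L mice at 3 weeks (SE 0.119, limma adjusted p = 0.469), neither of which passed. The average was -0.40 (SE 0.045, 44.0 TPM under Hnrnph2 ASO and 58.5 TPM under control ASO, limma adjusted p = 1.54e-06), and it kept its call without any of the 17 libraries and in the P209L cohorts alone (-0.36, limma adjusted p = 0.000361). Mutants given Hnrnph2 ASO differed from WT mice given control ASO by -0.02 on average for Atf6b (SE 0.045, 44.0 against 44.7 TPM, limma adjusted p = 0.889). That average joins differences in opposite directions. The treated mutants were all above the WT control libraries at 8 weeks and all below them in the R206W cohort. In the P209L cohort at 3 weeks the groups overlapped.

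In WT mice Atf6b was at 38.9, 35.6 and 37.2 TPM at 8 weeks under Hnrnph2 ASO, against the 37.2 to 39.3 TPM under control ASO. In the P209L cohort at 3 weeks it was at 47.3, 45.9 and 35.7 TPM, against 45.3 to 49.3 TPM, and in the R206W cohort at 44.2, 40.3 and 44.5 TPM, against 48.7 to 49.3 TPM. The WT groups overlapped in the P209L cohorts and stood apart in the R206W cohort. The average fold change in WT mice was -0.12 (SE 0.044, limma adjusted p = 0.358). The ASO effect in mutants minus that in WT mice was -0.28 (SE 0.063, limma adjusted p = 0.0434), and Atf6b was the 1 member of 40 called in that difference, beside 0.302% of all genes. That call was close to the threshold: it ended without any of 26 of the 35 libraries (highest adjusted p 0.136), and in the P209L cohorts alone (limma adjusted p = 0.239). Without the library that stood apart, WT Hnrnph2 ASO replicate 3 at 3 weeks, in which Atf6b was lowest of its group, the difference was -0.33 (SE 0.049, limma adjusted p = 0.000568), and the average effect in WT mice was -0.08 (limma adjusted p = 0.574).

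Another reading of the same libraries does not use a fit. Within each of the 3 cohorts the Atf6b level of every mutant given control ASO was above that of every other library: 49.1 to 53.7 TPM against 35.6 to 43.4 TPM at 8 weeks, 59.0 to 64.6 TPM against 35.7 to 51.0 TPM in the P209L cohort at 3 weeks, and 60.2 to 63.3 TPM against 40.3 to 49.3 TPM in the R206W cohort. Of the genes tested, 49 of 16556, or 0.296%, had that arrangement in all 3 cohorts, and Atf6b was the only member among them.

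Sesn2, which restrains mTORC1 when amino acids are short, also fell under Hnrnph2 ASO in the mutants. At 8 weeks it was at 9.97, 8.42 and 8.27 TPM in P209L mice given Hnrnph2 ASO, against 10.45, 11.14 and 10.91 TPM under control ASO. Sesn2 in P209L mice at 3 weeks was at 10.18 and 9.68 TPM, against 10.62, 10.95 and 10.72 TPM, and in R206W mice at 10.60, 9.43 and 9.89 TPM, against 11.51, 11.53 and 11.42 TPM. The treated mutants were below the control mutants in each cohort, without overlap. The average fold change was -0.19 (SE 0.045, 9.60 TPM under Hnrnph2 ASO and 11.03 TPM under control ASO, limma adjusted p = 0.0222). The call ended without replicate 2 of the Hnrnph2 ASO mutants of any cohort (adjusted p 0.0515 to 0.101), and in the P209L cohorts alone (-0.18, limma adjusted p = 0.113). WT mice given Hnrnph2 ASO were at 8.48 to 11.04 TPM, against 9.40 to 11.31 TPM in WT mice given control ASO, and their average fold change was -0.09 (SE 0.044, limma adjusted p = 0.525). The mutants given control ASO differed from WT mice by 0.13 (SE 0.044, limma adjusted p = 0.104), so the mutation effect on Sesn2 did not pass.

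Over all members, the Hnrnph2 ASO in mutants gave 2 calls, both lower, in the average of the cohorts, where 2.5% of all genes were called. Within cohorts limma called 1 member in R206W mice, beside 0.097% of all genes. It called 0 in P209L mice at 8 weeks, beside 0.0908% of all genes, and 0 at 3 weeks, beside 0.0969%. At an unadjusted p below 0.05 there were 5 rows at 8 weeks (12.5%, against 6.27% of all genes) and 2 at 3 weeks (5%, against 6.81%). At 8 weeks the members next to Atf6b in p were Ppp1r15a (log2 fold change 0.25, limma adjusted p = 0.335) and Sesn2 (-0.26, limma adjusted p = 0.481). At 3 weeks they were Mthfd2 (-0.35, limma adjusted p = 0.619) and Herpud1 (0.24, limma adjusted p = 0.736). Of the 19 immediate early genes 4 rose in the average comparison (median 0.43), and their part in the result was not tested.

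**Figure D3:**
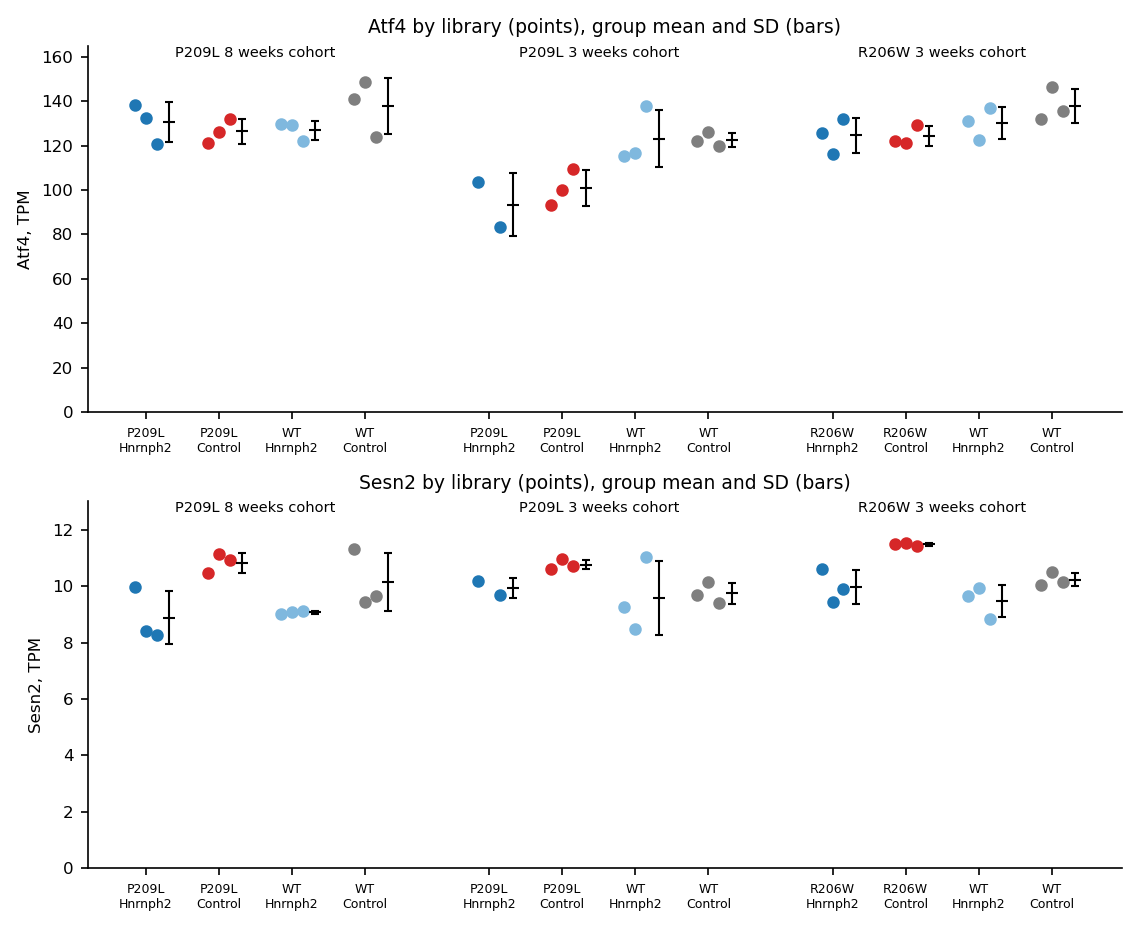
Atf4 (upper panel) and Sesn2 (lower panel) in TPM, from 0, in every library, arranged by cohort, genotype and ASO (Hnrnph2 or Control); points are libraries and bars are the group mean with its SD. Atf4 in mutants given control ASO is below the WT control libraries in both 3-week cohorts, and Sesn2 is lower in mutants given Hnrnph2 ASO than in mutants given control ASO in each cohort.

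In WT mice the Hnrnph2 ASO changed no member past the threshold. Limma called 0 of 40 rows in the P209L cohort at 8 weeks (beside 0.0182% of all genes), 0 in the P209L cohort at 3 weeks (beside 0.0121%), 0 in the R206W cohort (beside 0.0121%) and 0 in the average (beside 0.187%). At an unadjusted p below 0.05 there were 2 rows at 8 weeks (5%, against 3.41% of all genes) and 0 at 3 weeks in the P209L cohort (against 4.01%). There were 15 in the R206W cohort (37.5%, against 6.85%) and 12 in the average (30%, against 9.49%). At 8 weeks the smallest p belonged to Shmt2 (-0.17), Chac1 (-0.30) and Sesn2 (-0.14), each with a limma adjusted p of 0.957. At 3 weeks in the P209L cohort they were Hyou1 (0.15), Pdia4 (-0.18) and Eif2ak4 (0.20), each with a limma adjusted p of 0.939. In the R206W cohort they were all ER folding genes: Pdia4 (-0.65), Pdia3 (-0.26) and Calr (-0.45), each with a limma adjusted p of 0.488. In the average Pdia4 stood at -0.27 (SE 0.067, 24.1 TPM under Hnrnph2 ASO and 29.6 TPM under control ASO, limma adjusted p = 0.112), Manf at -0.20 (limma adjusted p = 0.224) and Calr at -0.19 (limma adjusted p = 0.250).

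The mutants given Hnrnph2 ASO were set against WT mice given control ASO, to ask how far treated mutants stand from the control state. In the average of the cohorts 9 members fell and 0 rose: Atf4, Xbp1 and the ER chaperones and folding enzymes Hspa5, Hsp90b1, Pdia4, Pdia6, Sdf2l1, Manf and Creld2. Of all genes tested, 4.83% were called and 2.12% were called lower. All 13 ER chaperones were below 0, with a median of -0.18, against 0.01 for all genes. The largest change among the members called was that of Sdf2l1 (-0.41, SE 0.096, 11.5 TPM in treated mutants and 16.3 TPM in WT mice, limma adjusted p = 0.0125). Xbp1 stood at -0.22 (SE 0.061, 65.2 TPM in treated mutants and 77.2 TPM in WT mice, limma adjusted p = 0.0316). Pdia4 (-0.28), Manf (-0.25), Pdia6 (-0.24), Creld2 (-0.22) and Hsp90b1 (-0.18) had limma adjusted p between 0.0133 and 0.0250.

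This result changed with the cohorts and libraries included. The calls depended on P209L Hnrnph2 ASO replicate 2 at 3 weeks, without which that group holds 1 library. With any 1 of the 17 libraries left out, the called members all stayed below 0. Sdf2l1, for example, stood at -0.48 to -0.35 and Hsp90b1 at -0.21 to -0.15. In the P209L cohorts alone 0 members were called. For Atf4, which was at 138.4, 132.5 and 120.6 TPM at 8 weeks, 103.4 and 83.5 TPM in P209L mice at 3 weeks and 125.5, 116.4 and 132.0 TPM in R206W mice under Hnrnph2 ASO, the average fold change was -0.21 (SE 0.049, 116 against 133 TPM, limma adjusted p = 0.0146), and -0.24 in the P209L cohorts alone (limma adjusted p = 0.0501). Hspa5 stood at -0.22 (SE 0.064, limma adjusted p = 0.0440), and its call ended without any of 11 of the 17 libraries; the call of Xbp1 ended without any of 6. In this comparison 5 of 11 cerebellar markers fell (median -0.33) and 4 of 8 oligodendrocyte markers fell (median -0.24), with the summed oligodendrocyte level at 6328 to 7609, 12551 to 13862 and 11044 to 15000 TPM in treated mutants of the P209L 8-week, P209L 3-week and R206W cohorts, against 6467 to 8575, 14709 to 16668 and 13870 to 14651 TPM in WT mice. Their part was not tested.

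Within single cohorts limma called no member in that comparison. In the P209L cohort at 8 weeks the count was 0 of 40, beside 0.00605% of all genes (2 at an unadjusted p below 0.05, or 5%, against 5.85% of all genes), with the smallest p for Psat1 (-0.20, limma adjusted p = 0.611), Slc7a11 (0.31, limma adjusted p = 0.746) and the second Ddit3 row. In the P209L cohort at 3 weeks it was 0, beside 0.0121% (6 at an unadjusted p below 0.05, or 15%, against 12% of all genes), with the smallest p for Atf4 (-0.40, limma adjusted p = 0.219), Pdia4 (-0.34, limma adjusted p = 0.290) and Atf6 (-0.20, limma adjusted p = 0.351). In the R206W cohort it was 0, beside 0.0182% (17 at an unadjusted p below 0.05, or 42.5%, against 12.6% of all genes), and Hspa5 (-0.65), Hsp90b1 (-0.36) and Xbp1 (-0.49) each had a limma adjusted p of 0.147. In the R206W cohort, deviations of same-numbered libraries of treated mutants and control WT mice correlated weakly (0.104 to 0.204). These libraries share only a number. With the replicate number as a block 8 members were called, all lower: Xbp1, Hspa5, Hsp90b1, Canx, Pdia3, Pdia4, Hyou1 and Manf (limma adjusted p 0.0408 to 0.0488). The share of all genes called with that block is not given here, so this count is not read as a result about the members.

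The ER chaperones of the R206W cohort were then read library by library. Hspa5 was at 188, 164 and 168 TPM in R206W mice given Hnrnph2 ASO, at 291, 228 and 193 TPM in R206W mice given control ASO and at 170, 197 and 191 TPM in WT mice given Hnrnph2 ASO, against 275, 303 and 242 TPM in WT mice given control ASO. Xbp1 was at 68.8, 69.3 and 65.3 TPM, at 89.5, 81.2 and 67.9 TPM and at 65.7, 74.7 and 78.3 TPM in these groups, against 94.7, 105 and 87.6 TPM in the WT mice given control ASO. High values were found under the control ASO in both genotypes, except in R206W control ASO replicate 3, which lay with the libraries given Hnrnph2 ASO.

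Sdf2l1 was at 11.7, 10.2 and 12.4 TPM in R206W mice given Hnrnph2 ASO, at 21.5, 18.6 and 13.03 TPM in R206W mice given control ASO and at 10.9, 13.1 and 15.1 TPM in WT mice given Hnrnph2 ASO, against 19.7, 28.7 and 19.4 TPM in WT mice given control ASO. Manf was at 79.1, 80.3 and 79.9 TPM, at 115.5, 109.8 and 85.8 TPM and at 81.5, 84.1 and 88.3 TPM, against 113.5, 151 and 107 TPM, in the same order of groups. Pdia4 was at 24.2, 22.2 and 23.0 TPM, at 36.3, 30.7 and 23.1 TPM and at 22.0, 23.3 and 23.0 TPM, against 37.0, 42.5 and 30.4 TPM. Again R206W control ASO replicate 3 was low.

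Pdia6 was at 59.1, 56.0 and 56.9 TPM in R206W mice given Hnrnph2 ASO, at 85.1, 79.5 and 62.8 TPM in R206W mice given control ASO and at 56.2, 60.5 and 68.0 TPM in WT mice given Hnrnph2 ASO, against 83.6, 99.9 and 75.6 TPM in WT mice given control ASO. Hsp90b1 was at 153, 140.4 and 141 TPM, at 188, 169 and 158 TPM and at 152, 147 and 154 TPM, against 189.6, 199 and 171 TPM, in that order of groups. Creld2 was at 13.2, 15.1 and 13.7 TPM, at 18.1, 17.4 and 15.03 TPM and at 13.6, 14.3 and 16.2 TPM, against 18.3, 24.8 and 17.3 TPM. The summed level of all 13 chaperones was 1115 to 1201 TPM, 1238 to 1594 TPM and 1160 to 1258 TPM in these groups, against 1449 to 1709 TPM in WT mice given control ASO.

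The P209L cohorts did not show this split. Over their 23 libraries Hspa5 lay between 156 and 211 TPM (median 180.5), Sdf2l1 between 9.08 and 15.2 TPM (median 12.4), Manf between 70.0 and 95.4 TPM (median 79.4), Pdia4 between 19.5 and 30.2 TPM (median 25.6) and Xbp1 between 52.2 and 75.6 TPM (median 66.4). Pdia6 lay between 51.2 and 71.5 TPM (median 65.8), Hsp90b1 between 147 and 198 TPM (median 179.5) and Creld2 between 11.2 and 15.5 TPM (median 13.3). For Hspa5, Sdf2l1, Manf, Pdia4, Pdia6, Creld2 and Xbp1, the control libraries of the R206W cohort, all but the R206W replicate 3, were above every P209L-cohort library.

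The animal names in the library titles divide the R206W cohort in the same way. The 5 libraries with high chaperones, 2 R206W and 3 WT, all under control ASO, have names with a common beginning, and R206W control ASO replicate 3 has another. The 6 libraries given Hnrnph2 ASO carry 2 further name beginnings. Whether a common beginning marks a litter, a cage or a working day is not stated. Read by name, as a description chosen after the values were seen, 11 of 40 members were higher without overlap in the 5 libraries than in the other 7, where 1.67% of all genes were: Xbp1 and 10 of the 13 ER chaperones. Hspa5 was at 228 to 303 TPM in the 5 libraries, against 164 to 197 TPM in the other 7, and Calr at 390 to 455 TPM, against 282 to 341 TPM. Dnajb9, Dnajc3 and Hyou1 overlapped. Ppp1r15a was the only member lower without overlap, at 15.7 to 17.3 TPM against 18.0 to 22.5 TPM, where 0.928% of all genes were; 9 of 19 immediate early genes were also lower without overlap. In this cohort all 5 libraries of the common name were given control ASO and no Hnrnph2 ASO library has that name, so the ASO and the name cannot be told apart.

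**Figure D4:**
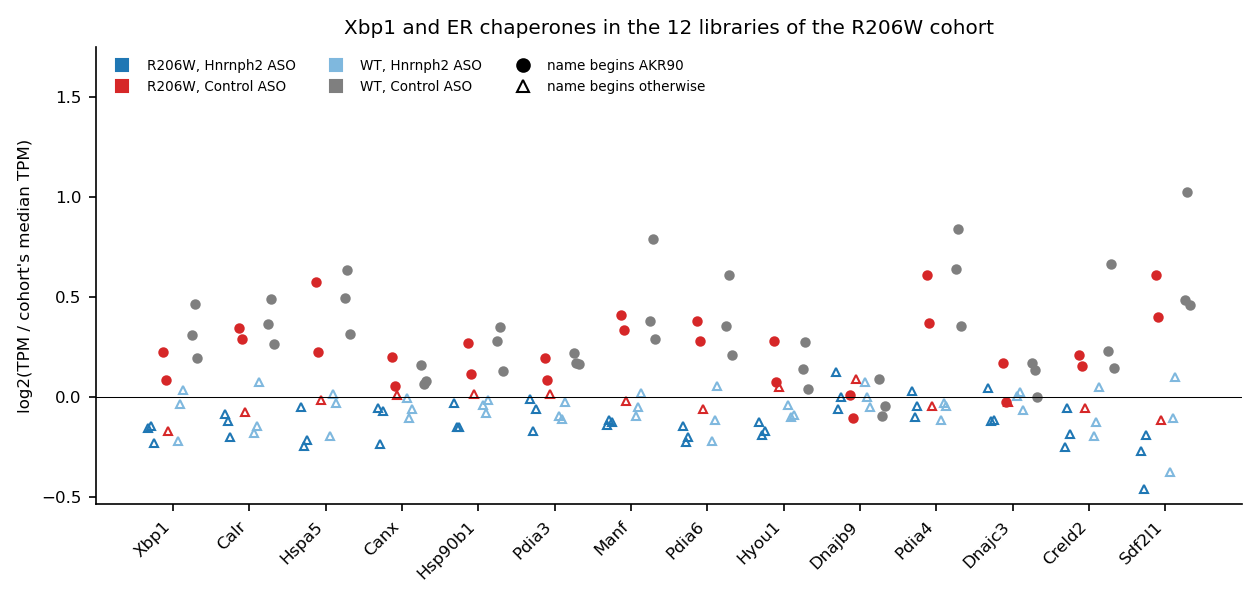
Xbp1 and the 13 ER chaperones and folding enzymes in the 12 libraries of the R206W cohort, as log2 of TPM over the median of the 12 libraries; colour gives genotype and ASO, and filled circles are the 5 libraries whose animal name begins in the same way, open triangles the other 7. For Hspa5, Sdf2l1, Manf and Pdia4 the circles are above all triangles, including the one R206W control library drawn as a triangle.

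WT mice given control ASO at 3 weeks were present in both cohorts of that age and share genotype, age and ASO. Those of the R206W cohort all have the common name beginning, so cohort and name cannot be told apart. Their summed chaperones were at 1449 to 1709 TPM, against 1276 to 1374 TPM in the P209L cohort. In WT mice given Hnrnph2 ASO the order was opposite, with 1160 to 1258 TPM in the R206W cohort and 1340 to 1361 TPM in the P209L cohort at 3 weeks. Of the members, 7 were higher in the R206W cohort than in the P209L cohort and 0 lower, where 3.67% of all genes were called higher and 5.43% in either direction: Ddit3, Xbp1, Hspa5, Pdia6, Sdf2l1, Manf and Creld2. Hspa5 was at 275, 303 and 242 TPM in the R206W cohort, against 198, 211 and 184 TPM in the P209L cohort (log2 fold change 0.46, SE 0.106, limma adjusted p = 0.0249). Creld2 had the smallest p (0.58, SE 0.093, 20.14 against 12.997 TPM, limma adjusted p = 0.00767), and Sdf2l1 the largest change (0.75, SE 0.159, 22.6 against 12.95 TPM, limma adjusted p = 0.0244). The count was 0 without R206W-cohort replicate 2 or P209L-cohort replicate 1, and 1 without P209L-cohort replicate 3. Cerebellar markers were higher in the same libraries, 11 of 11 above 0 and 6 called (median 0.71), with a summed level of 1375 to 1912 TPM in the R206W cohort against 1020 to 1123 TPM in the P209L cohort; their part was not tested.

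No member's mutation effect differed past the threshold between cohorts. The difference between the P209L and the R206W effect at 3 weeks was called for 0 of 40 rows and for 0% of all genes (0 rows at an unadjusted p below 0.05, against 2.37% of all genes). The smallest p there belonged to Edem1 (-0.32, SE 0.174), Creld2 (0.19, SE 0.132) and Asns (-0.15, SE 0.110). The difference between the P209L effects at 8 and at 3 weeks was likewise called for 0 of 40 rows and for 0% of all genes (1 row at an unadjusted p below 0.05, or 2.5%, against 3.11% of all genes), with the smallest p for Pdia4 (0.43, SE 0.165), Eif2s1 (0.37, SE 0.182) and Ddit4 (-0.45, SE 0.241).

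More members were called between ages than in any other comparison. The P209L cohorts at 8 weeks and at 3 weeks were compared as the average over the same 4 groups of genotype and ASO. Of the 40 rows, 11 were higher and 8 lower at 8 weeks, where 42.1% of all genes were called, 15.5% higher and 26.6% lower. The share of members called was near that of all genes, so their count is not a result about the members. Each age was 1 cohort, so age and cohort cannot be told apart. With 1 library left out at a time, between 17 and 20 members were called.

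The transcription factors of the stress response were higher at 8 weeks. Atf4 lay between 121 and 149 TPM (median 129) at 8 weeks and between 83.5 and 138 TPM (median 115) at 3 weeks (log2 fold change 0.25, SE 0.042, limma adjusted p = 2.07e-05). Atf5 lay between 32.7 and 42.9 TPM (median 37.7) at 8 weeks and between 26.3 and 37.7 TPM (median 29.9) at 3 weeks (0.33, SE 0.047, limma adjusted p = 3.06e-06). Ddit3 lay between 33.1 and 44.0 TPM (median 36.9) at 8 weeks and between 27.7 and 32.7 TPM (median 29.2) at 3 weeks (0.35, SE 0.050, limma adjusted p = 3.17e-06). The ages did not overlap for Ddit3, but the R206W cohort, also 3 weeks old, had 34.8 to 49.97 TPM of Ddit3 and 116 to 146 TPM of Atf4, as in the older cohort. Atf5 in the R206W cohort lay between 27.3 and 31.5 TPM, as in the other cohort of that age.

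Their targets divided. Mthfd2, of the mitochondrial folate pathway, had the largest rise, with 8.59 to 12.8 TPM (median 9.98) at 8 weeks and 4.45 to 8.59 TPM (median 6.67) at 3 weeks (0.55, SE 0.057, limma adjusted p = 2.05e-08). Slc7a11 (0.26), Chac1 (0.19), Phgdh (0.14) and Asns (0.10) were also called higher. Ddit4 fell most, with 43.5 to 72.2 TPM (median 54.7) at 8 weeks and 63.9 to 127 TPM (median 78.0) at 3 weeks (-0.63, SE 0.088, limma adjusted p = 1.93e-06). Slc7a5 lay between 36.6 and 45.8 TPM (median 43.5) at 8 weeks and between 49.7 and 99.6 TPM (median 54.0) at 3 weeks, without overlap (-0.43, SE 0.073, limma adjusted p = 3.04e-05), and its partner Slc3a2 lay between 103 and 121 TPM at 8 weeks and between 116 and 167 TPM at 3 weeks (-0.22, SE 0.037, limma adjusted p = 3.42e-05). Slc7a5 and Slc3a2, which together import neutral amino acids, were lower, while Phgdh and Mthfd2 of serine and folate metabolism were higher. In the R206W cohort Mthfd2 lay between 6.83 and 8.85 TPM, Ddit4 between 76.7 and 108 TPM and Slc7a5 between 47.1 and 61.7 TPM, nearer to the P209L cohort of the same age.

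Upstream of eIF2 the phosphatase cofactors fell: Ppp1r15b lay between 24.1 and 28.9 TPM (median 25.2) at 8 weeks and between 26.6 and 35.03 TPM (median 28.1) at 3 weeks (-0.15, SE 0.043, limma adjusted p = 0.00653), and Ppp1r15a stood at -0.17 (SE 0.065, limma adjusted p = 0.0316). The kinase gene Eif2ak3 also fell (-0.17, SE 0.050, limma adjusted p = 0.00744), and Eif2s1, at 23.2 to 35.7 TPM at 8 weeks and 21.7 to 29.5 TPM at 3 weeks, was not called. On the ER side Atf6b fell (-0.23, SE 0.039, 42.0 against 49.8 TPM, limma adjusted p = 2.44e-05) and Xbp1 rose slightly (0.15, SE 0.052, limma adjusted p = 0.0250). The ERAD gene Edem1, which takes misfolded glycoproteins out of the folding cycle, lay between 7.75 and 12.3 TPM (median 9.37) at 8 weeks and between 9.92 and 14.2 TPM (median 11.8) at 3 weeks (-0.25, SE 0.063, limma adjusted p = 0.00281). Sel1l, at 47.9 to 74.5 TPM at 8 weeks and 62.6 to 73.2 TPM at 3 weeks, was not called. Of the 13 ER chaperones only Creld2 (0.17) and Hsp90b1 (0.10) were called, both higher, and the most abundant, Calr, lay between 262 and 319 TPM at 8 weeks and between 282 and 377 TPM at 3 weeks. In the R206W cohort, also 3 weeks old, the medians of Edem1 (10.2 TPM) and Eif2ak3 (14.4 TPM) were nearer to those at 8 weeks. Its medians of Xbp1 (76.5 TPM) and Creld2 (15.6 TPM) were above those of both P209L cohorts, on the side of 8 weeks. Those of Ppp1r15a, Ppp1r15b, Atf6b and Hsp90b1 lay on the side of the 3-week cohort.

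Ddit3 and Mthfd2 were called in each of the 4 genotype and ASO groups taken alone, in which 5 to 7 members were called. Shares of all genes called in single groups are not given here, so these counts are not read as a result about the members. The calls of Asns and Hsp90b1 were the weakest, and ended without any of 18 and 10 of the 23 libraries. Those of Ppp1r15a and Xbp1 ended without any of 5 and 3, among them the library that stood apart, WT Hnrnph2 ASO replicate 3 at 3 weeks (limma adjusted p = 0.0518 for Ppp1r15a and 0.0546 for Xbp1). That library held the highest Slc7a5 value, 99.6 TPM, and without it the fold change of Slc7a5 was -0.36 (limma adjusted p = 1.29e-07). Its summed levels of Atf4, Atf5 and Ddit3 (203.06 TPM) and of the phosphatase cofactors (60.3 TPM) were the highest of its cohort. No library left out ended the age calls of Atf4, Atf5 or Ppp1r15b. Cell-type markers moved strongly with age: 8 of 8 oligodendrocyte markers were lower at 8 weeks (median -0.98), with a summed level of 5979 to 8575 TPM at 8 weeks and 12551 to 16668 TPM at 3 weeks, as were 4 of 4 markers of immature neurons (median -0.60) and 5 of 5 of red blood cells (median -0.62), while 4 of 6 choroid plexus markers were higher (median 0.55). Their part in the members' results was not tested.

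**Figure D5:**
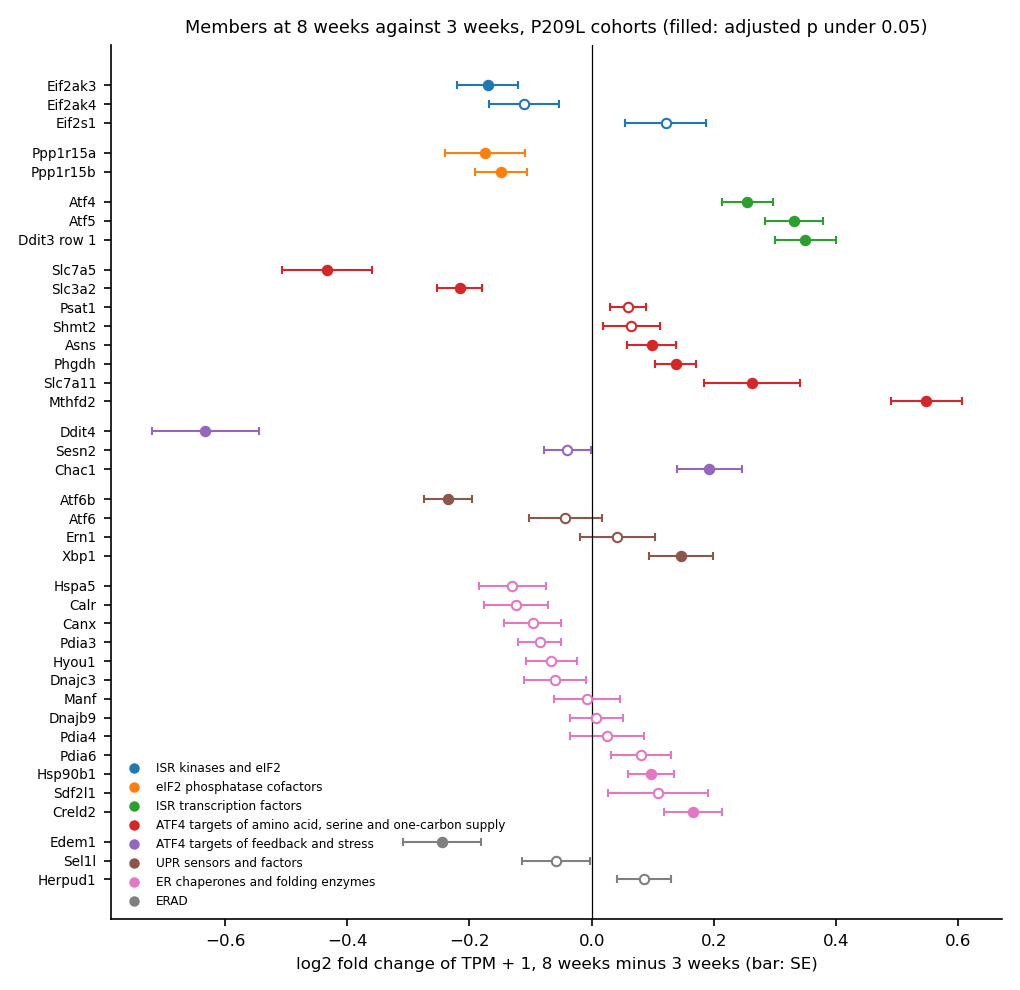
Fold change of each member between the P209L cohorts at 8 and at 3 weeks, on the scale log2(TPM + 1), with its standard error, grouped by role; filled points have a limma adjusted p below 0.05, and the second Ddit3 row and Trib3 are not drawn. Atf4, Atf5, Ddit3 and Mthfd2 are to the right of 0, and Ddit4, Slc7a5, Edem1 and Atf6b to the left.

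Further genes of the pathways, outside the 40, were read from lists of other eIF2 kinases and eIF2B subunits (9 tested), other ATF4 targets (28 tested), other genes of ER folding, translocation and ERAD (38 tested) and mitochondrial chaperones and proteases (10 tested). In the average mutation effect 2 of the 28 ATF4 targets rose and 0 fell, 1 of the 10 mitochondrial genes rose, and none of the eIF2 and ER lists was called. Stc2, a secreted glycoprotein induced by PERK and ATF4 signalling, was at 2.59, 2.35 and 2.11 TPM at 8 weeks, 1.68, 1.70 and 1.65 TPM in the P209L cohort at 3 weeks and 1.68, 1.67 and 1.76 TPM in R206W mice, all given control ASO. WT mice given control ASO had 1.68, 1.52 and 1.47 TPM, 0.90, 1.12 and 1.25 TPM, and 1.46, 1.24 and 1.06 TPM of Stc2 in the same cohorts. The mutants were above the WT mice of their cohort in every library, and the average fold change of Stc2 was 0.34 (SE 0.065, limma adjusted p = 0.00209). Under Hnrnph2 ASO the mutants had 1.06 to 1.60 TPM of Stc2, and the fold change between ASOs in mutants was -0.33 (SE 0.068, 1.31 TPM under Hnrnph2 ASO and 1.91 TPM under control ASO, limma adjusted p = 0.00517), the 1 call in the lists. Neither Stc2 call was ended by a library left out or by another setting. The ASO effect on Stc2 in mutants minus that in WT mice did not pass (limma adjusted p = 0.345).

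Psph, the last enzyme of serine synthesis, also rose in mutants (0.24, SE 0.062, 22.8 TPM in mutants and 19.2 TPM in WT mice, limma adjusted p = 0.0233), but the call ended in the P209L cohorts alone (limma adjusted p = 0.227) and without any of 4 libraries (adjusted p 0.0529 to 0.0617): R206W control ASO replicate 3, P209L control ASO replicate 1 at 3 weeks, and WT control ASO replicate 1 at 8 weeks or replicate 2 of the P209L cohort at 3 weeks. Afg3l2, a mitochondrial protease subunit, stood at 0.14 (SE 0.038, limma adjusted p = 0.0290), but its call ended in the P209L cohorts alone (limma adjusted p = 0.127), with only the groups of the contrast fitted (0.0651) and without any of 10 of the 18 libraries (adjusted p 0.05001 to 0.0704). In treated mutants against WT mice given control ASO, Eif2ak2, the eIF2 kinase PKR that senses double-stranded RNA, rose (0.61, SE 0.117, 6.61 TPM in treated mutants and 3.77 TPM in WT mice, limma adjusted p = 0.00245). Its highest library, P209L Hnrnph2 ASO replicate 2 at 3 weeks, was at 11.68 TPM, and the call held without that library (0.45, limma adjusted p = 0.0334). The WT means of Eif2ak2 were also higher under Hnrnph2 ASO than under control ASO. They were 4.63 against 3.76 TPM at 8 weeks, 4.67 against 3.69 TPM in the P209L cohort at 3 weeks and 5.07 against 3.86 TPM in the R206W cohort. The WT groups overlapped at 8 weeks and in the R206W cohort.

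With age, 15.5% of all genes were called higher and 26.6% lower, and the lists beside the members are read against these shares. Of the 9 genes of other eIF2 kinases and eIF2B, 7 were lower at 8 weeks and 0 higher, with the largest change in Eif2b1, a subunit of the exchange factor that phosphorylated eIF2 blocks (-0.34, SE 0.033, 18.5 TPM at 8 weeks and 23.6 TPM at 3 weeks, limma adjusted p = 5.78e-09). Of the other ER genes 15 of 38 were called lower and 3 higher; among those lower were Creb3l1 (-0.42, SE 0.067, limma adjusted p = 1.49e-05), a membrane-bound factor related to ATF6, and Os9, an ERAD lectin (-0.24, SE 0.032, limma adjusted p = 8.81e-07). Of the other ATF4 targets 4 of 28 were higher and 4 lower.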

How the data were processed

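The authors deposited 1 table of TPM for 35 libraries, made with a TruSeq stranded total RNA kit per the labels' protocols. Per the submitters' processing notes, tools included Trim Galore, STAR 2.7.1a, GATK 4.0.4.0 and RSEM, with mouse build mm10; the order of steps is not given in the sources used here. TPM is relative within a library and has no depth, so no counting interval is given, and its precision comes only from replicates. Rows were matched by symbol; members and lists were chosen with earlier results of these data known. The tests were run in limma (version 3.58.1, under R 4.3.3) with a pseudocount of 1 TPM before the log2, a mean-variance trend and 1 mean per group. They were two-sided, and Benjamini-Hochberg adjustment covered every gene that averaged 1 TPM or more in the fitted libraries. Contrasts within a cohort used that cohort's libraries, and averages, differences and age used all 35; the limma fit was tested on simulated data. Members called in any comparison, and for age the 3 largest rises and falls and the most abundant member of each role, are given with values; where none was called, the 3 with the smallest p. All 40 symbols matched RefSeq coordinates. The tests took no account of replicate numbers, and a replicate block was used only as an alternative. Deviations of same-numbered libraries were correlated as a check. The correlations were above 0.1 in all 3 pairs for treated mutants against control WT mice at 8 weeks (0.123 to 0.240) and in the R206W cohort (0.104 to 0.204). Alternatives were another pseudocount, no filter, rescaling, fewer or more groups in the fit, a replicate block and each library left out.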

Additional observations from a re-analysis of the deposited data

Results flagged for a closer look

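One result met a rule set for differences between groups. The effect of Hnrnph2 ASO on Atf6b was larger in mutants than in WT mice by -0.28 on the log2 scale (SE 0.063, limma adjusted p = 0.0434), a test of the difference itself. The ASO effect was -0.40 in mutants (SE 0.045) and -0.12 in WT mice (SE 0.044), as averages of the 3 cohorts, and Atf6b was lower under Hnrnph2 ASO without overlap in mutants of all 3 cohorts. The difference missed the threshold in the P209L cohorts alone (limma adjusted p = 0.239). Without WT Hnrnph2 ASO replicate 3 at 3 weeks it was -0.33 (limma adjusted p = 0.000568), and it missed the threshold without any of 26 of the other libraries.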

How the results depend on the processing

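Counts of members called were recomputed under 354 alternatives, of which 279 stayed within 1.5 times the count in the report and 75 did not. Of 1063 recomputed member calls, 840 kept direction and call, 222 lost the call and 1 changed sign: Hsp90b1 with age within WT Hnrnph2 ASO mice, at -0.0019. With rescaling by median ratios the mutation effect had 0 members at 8 weeks and 0 in the R206W cohort, and the ASO difference 0. With the groups of the contrast alone the mutation effect had 0 at 8 weeks and 0 in R206W mice, the ASO effect 0 in R206W mice, treated mutants against WT 3 on average, and the WT cohorts 0. A pseudocount of 0.1 TPM left 0 for the R206W mutation effect, and no filter left 0 for the ASO difference. In the fit of all 35 libraries the mutation effect had 1 in P209L mice at 3 weeks and 0 in R206W mice, the ASO effect 1 in WT mice of the R206W cohort (Pdia4) and 1 in P209L mice at 3 weeks (Atf6b), and treated mutants against WT 1 in the P209L cohort at 3 weeks (Atf4) and 9 in the R206W cohort. In the average of the P209L cohorts only, an alternative chosen after seeing the data, the mutation effect had 1, the ASO effect in mutants 1, treated mutants against WT 0 and the ASO difference 0. Age within single groups, also added later, gave 6 (P209L, Hnrnph2 ASO), 6 (P209L, control ASO), 5 (WT, Hnrnph2 ASO) and 7 (WT, control ASO). With the replicate block the treated R206W count was 8 and the WT cohort count 11, in groups that share only a number; the block changed no other count by over 1.5 times. Leaving out 1 library at a time gave 0 to 1 for the mutation effect at 8 weeks, 0 to 0 for R206W mice and 1 to 2 for the average; 0 to 1 for the average ASO effect in WT mice, 1 to 3 in mutants, 0 to 12 for treated mutants against WT, 0 to 1 for the ASO difference, 17 to 20 for age and 0 to 9 for the WT cohorts. The cause of these changes was not tested. Shares of all genes called under the alternatives are not given here, so these counts are not read as results about the members. Rescaling moved the median of all genes by under 0.05 (log2) in every comparison. Without counts, depth sets no stated limit.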

Other observations

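In treated mutants against WT mice given control ASO, Aldh1l2, a mitochondrial folate enzyme, fell (log2 fold change -0.29, SE 0.069, 2.01 TPM in treated mutants and 2.65 TPM in WT mice, limma adjusted p = 0.0150). Cebpg, a partner of ATF4, fell by less (-0.14, SE 0.040, 15.6 TPM in treated mutants and 17.1 TPM in WT mice, limma adjusted p = 0.0486), and Spg7, a mitochondrial protease subunit, rose (0.16, SE 0.041, limma adjusted p = 0.0231). These were named because they were the calls in the lists around the members, and several alternatives end each of them.

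Of the mitochondrial chaperones and proteases, 2 of 10 were higher and 3 lower at 8 weeks than at 3 weeks in the P209L cohorts. Of all genes, 15.5% were called higher and 26.6% lower in that comparison, so these counts are not a result about the list. Clpp rose (0.20, SE 0.044, 62.8 TPM at 8 weeks and 54.4 TPM at 3 weeks, limma adjusted p = 0.000561), and Lonp1 fell (-0.11, SE 0.031, limma adjusted p = 0.00637). Of 11 glucocorticoid-responsive genes, 6 were lower at 8 weeks and 0 higher (median -0.30), beside the same shares of all genes. Between WT mice given control ASO at 3 weeks, Txndc11, Syvn1 and Sec61a1 of the ER lists were higher in the R206W cohort than in the P209L cohort, Sec61a1 at 72.5 against 62.4 TPM (0.21, SE 0.063, limma adjusted p = 0.0458).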
